A study of Mus musculus with 6 samples.

Results

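Hemidesmosomes are the junctions that fasten the base of an epithelial cell to its basement membrane. The genes described here are the 7 listed for the hemidesmosome and its ligand, laminin-332: Lama3, Lamb3, Itga6, Itgb4, Col17a1, Dst and Plec. They were chosen by name, with earlier results of these data known. Probes were assigned through the RefSeq accession printed beside each probe, which gave 12 probes for 6 of the 7 genes, among 41174 gene probes and 17178 named genes on the array. Lama3 was not analysed here, because no probe accession used here mapped to it. All 12 probes were flagged as well above background on all 6 arrays.

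Laminin-332, whose chains include the products of Lama3 and Lamb3, lies in the basement membrane under stratified epithelia. Its receptor in the hemidesmosome is the integrin formed by the products of Itga6 and Itgb4, joined by the transmembrane collagen of Col17a1. Inside the cell, plectin (Plec) and the epithelial product of Dst link this complex to keratin filaments. In the tooth, the enamel-forming ameloblasts sit on a basement membrane with laminin-332 until they begin to secrete enamel matrix, and people with mutations in several of these genes have skin blistering together with defective enamel.

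RNA came from tooth germs of lower first molars taken at postnatal day 0. The 3 Perp-null and the 3 wild-type (WT) samples were all 129/Sv mice labelled male, and each was hybridised to a one-colour array. Perp encodes a membrane protein of desmosomes, and the labels give the mutant genotype only as Perp-null, without the part of the gene that was deleted. The labels call the 3 samples of a group biological replicates but give no number of animals or litters behind each, so a p-value speaks only of the spread among these 6 samples. In bulk tissue of this kind, fewer cells of a type and less RNA per cell cannot be told apart. Between 72.8% and 82.3% of probes were well above background on the Perp-null arrays, against 78.5% to 79.6% on the WT arrays, and 0 spots were saturated. Samples are called PN1 to PN3 and WT1 to WT3 by their labels. The word array stands for the scanner file of a sample and the word column for the same sample in the authors' deposited value table. Values are log2 signals relative to the 75th percentile of the array or column, so a value of 0 is the 75th percentile. Markers of the tissue were present on every array. Among them were Amelx (enamel matrix), Dspp (dentin) and Krt14 (epithelium), all well above background on all 6.

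The sample labels did not hold for the scanner files. On the arrays, Perp gave 5.87 on PN1, −6.81 on PN2 and 5.97 on PN3, against 5.96 on WT1, −5.06 on WT2 and 5.91 on WT3. Perp therefore went against the label on PN1, PN3 and WT2. Its probe was flagged as well above background on all 6 arrays, PN2 and WT2 included, so this flag is also set at very low signal. In the value table, Perp gave −3.47, −2.74 and −3.72 in columns PN1, PN2 and PN3, against 6.03, 5.97 and 6.0 in columns WT1, WT2 and WT3. All 3 Perp-null columns thus lay far below all 3 WT columns, with a log2 fold change of −9.31 (SE 0.24; limma, Benjamini-Hochberg adjusted p = 6.18e-06).

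**Figure D1:**
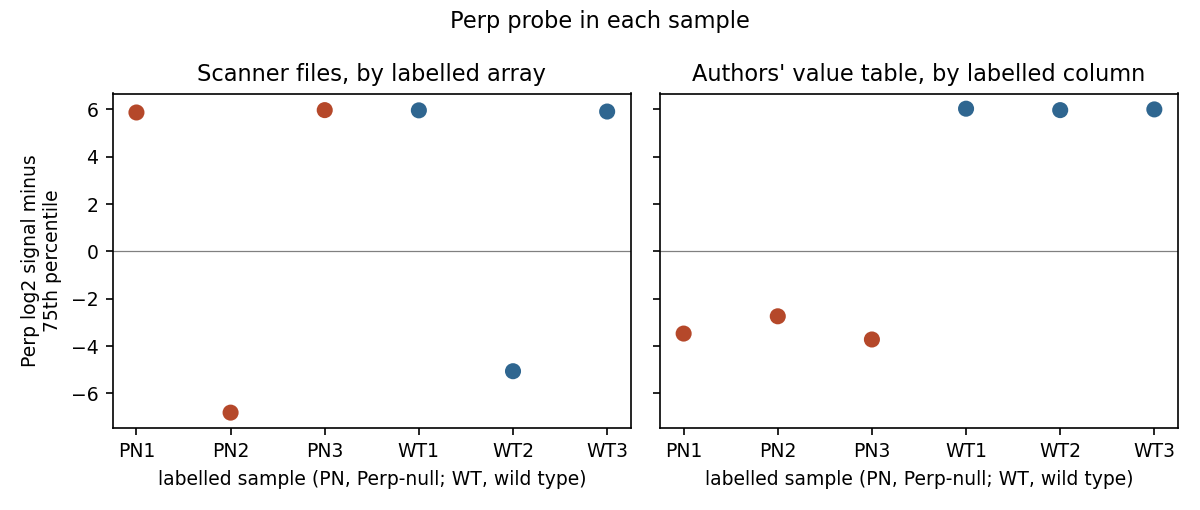
Perp log2 signal minus the 75th percentile (vertical axis) in each labelled sample, for the scanner files on the left and the authors' value table on the right. Each point is 1 sample, Perp-null in red and WT in blue. On the arrays PN1, PN3, WT1 and WT3 lie near 6, and in the table all 3 WT columns do so while the Perp-null columns lie below −2.

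For 5 of the 6 samples, the column lay nearer to the array of another label than to its own. Over the brighter of the probes, those at or above the median, the median absolute difference in log2 signal was 0.056 between column WT1 and array WT1, the one label at which both met. Column WT2 lay closest to array WT3 (0.031), column WT3 to array PN1 (0.09), and column PN1 to array WT2 (0.102). Differences were larger for the other 2 columns. Column PN2 lay closest to array WT3 (0.163), to which column WT2 was nearer, and column PN3 to array PN2 (0.205). Array PN3 was the closest array of no column, its smallest difference being 0.187 with column PN1. Sex signals also differed from the male label. Xist was high on arrays PN1 (−1.84), PN2 (−1.06) and WT2 (−2.18), against −7.89 on PN3, −6.96 on WT1 and −7.13 on WT3, and in the table it was highest in columns PN3 (−0.84), PN1 (−1.71) and WT3 (−2.82). Every labelled difference on the arrays is therefore one between arrays labelled Perp-null and arrays labelled WT, and labelled differences of the members are given for both sources, which were normalized and tested separately.

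Promoter windows are shown for the 3 members with an entry in the RefSeq promoter table (assembly GRCm38.p6 of C57BL/6J, not the strain used), because the probes of these 3 genes include those that moved together across samples. Each window runs from 250 bases before to 50 bases after an annotated start, written 5′ to 3′, and capitals mark matches to the motifs named after it.
Lamb3, chr1:193301744-193302043, plus strand: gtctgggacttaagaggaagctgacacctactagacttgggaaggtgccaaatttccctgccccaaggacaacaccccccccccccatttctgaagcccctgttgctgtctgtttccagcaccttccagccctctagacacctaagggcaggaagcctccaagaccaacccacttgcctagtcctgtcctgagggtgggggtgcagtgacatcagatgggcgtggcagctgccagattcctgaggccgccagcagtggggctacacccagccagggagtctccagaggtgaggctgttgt
Col17a1, chr19:47691993-47692292, minus strand: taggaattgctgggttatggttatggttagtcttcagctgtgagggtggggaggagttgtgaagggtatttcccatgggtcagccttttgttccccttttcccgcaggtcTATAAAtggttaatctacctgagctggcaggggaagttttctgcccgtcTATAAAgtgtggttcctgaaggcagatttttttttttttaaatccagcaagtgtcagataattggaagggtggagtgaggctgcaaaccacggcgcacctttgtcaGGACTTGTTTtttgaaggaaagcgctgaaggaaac
Dst, chr1:34011345-34011644, plus strand: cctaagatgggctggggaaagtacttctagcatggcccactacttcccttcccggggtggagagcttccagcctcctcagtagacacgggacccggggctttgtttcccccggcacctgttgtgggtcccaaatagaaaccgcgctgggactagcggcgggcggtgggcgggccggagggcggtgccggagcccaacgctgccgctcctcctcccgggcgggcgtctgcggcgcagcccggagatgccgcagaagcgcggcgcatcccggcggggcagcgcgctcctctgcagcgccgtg
Dst, chr1:34160010-34160309, plus strand: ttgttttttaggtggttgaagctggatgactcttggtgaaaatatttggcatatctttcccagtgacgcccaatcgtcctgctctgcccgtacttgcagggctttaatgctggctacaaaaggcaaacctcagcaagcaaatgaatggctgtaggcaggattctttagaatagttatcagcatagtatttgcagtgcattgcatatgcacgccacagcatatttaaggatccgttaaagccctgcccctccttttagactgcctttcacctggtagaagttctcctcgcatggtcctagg
The motifs searched were TATAAA on the strand shown and, on both strands, TGANTCA (the AP-1 site), TAATCC (the bicoid type) and the p53 family half-site. Of 32851 windows of this length in the table, 8.32% held the first, 7.81% the second, 7.06% the third and 8.36% the fourth. The Col17a1 window held 2 TATAAA matches, at bases 111 to 116 and 160 to 165, and 1 p53 family half-site, at bases 266 to 275, which reads as a match on both strands. None of the 4 motifs matched in the Lamb3 window shown or in either Dst window. Lamb3 has a second, overlapping window in the table, which also held none.

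Lamb3, the laminin-332 chain gene that was measured, varied strongly between samples of the same label. This beta chain gene gave 2.22, 2.39 and 3.28 on arrays PN1, PN2 and PN3, against 3.29, 3.30 and 2.43 on arrays WT1, WT2 and WT3. PN3, WT1 and WT2 were high and within 0.02 log2 units of each other, the other 3 arrays were low, and the labelled groups overlapped. The labelled difference was −0.38 (SE 0.35; limma, adjusted p = 1.00). In the value table, Lamb3 gave 3.00, 1.60 and 1.96 in columns PN1, PN2 and PN3, against 3.29, 2.40 and 2.51 in columns WT1, WT2 and WT3. There PN1 and WT1 were high and the other 2 Perp-null columns were the lowest, but PN1 lay above 2 of the WT columns, and the difference of −0.55 (SE 0.37) did not pass (limma, adjusted p = 0.355). Without column PN1, the high Perp-null column, it was −0.95 and passed (limma, adjusted p = 0.0399). Leaving out the highest Perp-null value must lower the mean of that group, so this pass is no support for a difference. It was the 1 pass among 42 member values under alternatives in the table. The setting without PN1 called 5899 features, against 6269 (23.5%) with all columns. The 6269 were concentrated among dim features, and the members lay among the brighter ones.

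The 2 integrin genes moved little. Itgb4, whose long cytoplasmic tail binds plectin, had 2 probes. The brighter gave 4.72, 4.71 and 5.26 on arrays PN1 to PN3, against 5.21, 5.15 and 4.79 on arrays WT1 to WT3. PN3, WT1 and WT2 were again the higher arrays, over a range of only 0.55 log2 units. The other probe had the same 3 arrays high, at 5.03 on PN3, against 4.75 on WT1 and 4.8 on WT2. In the table the brighter probe gave 5.11, 4.58 and 4.81 in columns PN1 to PN3, against 5.17, 4.77 and 4.81 in columns WT1 to WT3, with PN1 and WT1 high. The labelled difference was −0.15 (SE 0.20) on the arrays and −0.08 (SE 0.16) in the table, with 95% intervals of −0.63 to 0.33 and −0.46 to 0.29 (limma, adjusted p = 1.00 and 0.784).

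Itga6, the alpha chain that pairs with the product of Itgb4 and, in other cells, with integrin beta 1, followed another order. Its probe gave 2.43, 3.04 and 2.73 on arrays PN1 to PN3, against 2.76, 3.21 and 2.68 on arrays WT1 to WT3. WT2 and PN2 were the highest and PN1 the lowest. In the table it gave 2.84, 2.92 and 2.72 in columns PN1 to PN3, against 2.79, 2.63 and 2.52 in columns WT1 to WT3, the narrowest range of the 12 probes together with that of the dimmer Itgb4 probe (0.40 log2 units each). The labelled difference was −0.15 (SE 0.21) on the arrays and 0.18 (SE 0.12) in the table (limma, adjusted p = 1.00 and 0.359), so the sign turned between the sources. Itga6 is also expressed by endothelium. The summed signal of all 6 endothelial markers, relative to the 75th percentile, ran from 3.34 to 5.78 on the Perp-null arrays, against 7.26 to 9.25 on the WT arrays, and from 6.12 to 8.86 in the Perp-null columns, against 2.92 to 9.36 in the WT columns. Their part in the Itga6 values was not tested.

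Col17a1, which encodes the transmembrane collagen known as BP180, followed Lamb3 closely. Its brighter probe gave 2.78, 2.77 and 3.61 on arrays PN1 to PN3, against 3.67, 3.94 and 2.85 on arrays WT1 to WT3. The dimmer one gave 0.46, 0.28 and 1.52 on the Perp-null arrays, against 1.44, 1.35 and 0.43 on the WT arrays. On both probes PN3, WT1 and WT2 lay well above the other 3 arrays, which differed among themselves by less than 0.2. In the table the brighter probe gave 3.71, 2.66 and 2.81 in columns PN1 to PN3, against 3.72, 2.79 and 2.96 in columns WT1 to WT3. Columns PN1 and WT1 were level and the other 4 were lower, whatever their label. The labelled difference was −0.43 (SE 0.35) on the arrays and −0.10 (SE 0.32) in the table (limma, adjusted p = 1.00 and 0.879).

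The linker genes were heterogeneous between their own probes. Dst had 3 probes, of which A_51_P300434, the brightest, gave −0.09, −0.05 and 1.08 on arrays PN1 to PN3, against 1.18, 1.32 and −0.10 on arrays WT1 to WT3. This is the order of Lamb3 and Col17a1, with PN3, WT1 and WT2 above the other 3 by over 1 log2 unit. In the table it gave 1.15, −0.43 and −0.23 in columns PN1 to PN3, against 1.25, −0.09 and −0.17 in columns WT1 to WT3. Its labelled difference was −0.49 (SE 0.47) on the arrays and −0.17 (SE 0.50) in the table (limma, adjusted p = 1.00 and 0.866).

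The other Dst probes did not follow that order on the arrays. A_52_P184304 gave −0.67, −4.54 and −2.29 on arrays PN1 to PN3, against −1.58, −2.56 and −2.05 on arrays WT1 to WT3. A_52_P445253 gave −0.77, −2.23 and −1.38 on the Perp-null arrays, against −0.68, −1.33 and −1.78 on the WT arrays. PN2 was the lowest array for both. In the table, A_52_P184304 gave −1.95, −2.95 and −2.90 in columns PN1 to PN3, against −1.55, −2.0 and −0.98 in columns WT1 to WT3. Column PN1 lay just above WT2, so the groups overlapped. This was the largest labelled difference among the 12 probes in the table, at −1.09 (SE 0.38), and it did not pass (limma with every probe tested, adjusted p = 0.0722). A_52_P445253 gave −1.14, −2.35 and −1.77 in the Perp-null columns, against −0.76, −1.74 and −1.26 in the WT columns, a difference of −0.50 (SE 0.38; limma, adjusted p = 0.403). Dst is known to make neuronal and muscle products besides the epithelial one, and the files do not say which product each probe detects.

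Plec, which encodes plectin, a linker of intermediate filaments that is also found in muscle, had 3 probes as well. The brightest gave 0.36, 0.42 and 0.59 on arrays PN1 to PN3, against 0.68, 0.72 and 0.20 on arrays WT1 to WT3, a range of 0.52 log2 units. The table gave 0.37, 0.23 and −0.27 in columns PN1 to PN3, against 0.65, 0.21 and 0.62 in columns WT1 to WT3. The labelled difference was −0.08 (SE 0.19) on the arrays and −0.38 (SE 0.23) in the table (limma, adjusted p = 1.00 and 0.281). The middle probe, A_52_P27225, gave −0.94, −1.75 and −1.22 on the Perp-null arrays, against −0.49, −1.32 and −1.16 on the WT arrays, and −0.96, −1.08 and −1.36 in the Perp-null columns, against −0.52, −1.11 and −1.61 in the WT columns.

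The dimmest Plec probe, A_52_P380502, had the widest range of the 12 on the arrays, at 4.0 log2 units, but a range of 1.40 in the table, where the Dst probe A_52_P184304 had the widest, at 1.97. It gave −1.09, −5.08 and −3.08 on arrays PN1 to PN3, against −2.05, −3.99 and −2.46 on arrays WT1 to WT3. PN1 was the highest and PN2 and WT2 were the lowest. The raw negative control spots had their highest median on PN1 (127) and their lowest on PN2 (32) and WT2 (37.5), and the dimmest Dst probe had the same highest array and the same 2 lowest arrays. The part of background in these 2 probes was not tested. In the table this Plec probe gave −2.83, −2.99 and −3.16 in columns PN1 to PN3, against −2.28, −2.57 and −1.76 in columns WT1 to WT3. It was the one probe of the 12 whose labelled groups did not overlap. With a gene tested by its brightest probe, 43.2% of features did not overlap there (24.4% with the Perp-null columns lower). This Plec probe did not pass (log2 fold change −0.79, SE 0.27; limma with every probe tested, where 23.1% of probes were called, adjusted p = 0.0729). Summed markers of skeletal muscle ran from 0.977 to 7.39 on the Perp-null arrays, against 1.17 to 2.22 on the WT arrays, and from 1.47 to 4.11 in the Perp-null columns, against 2.18 to 4.25 in the WT columns.

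**Figure D2:**
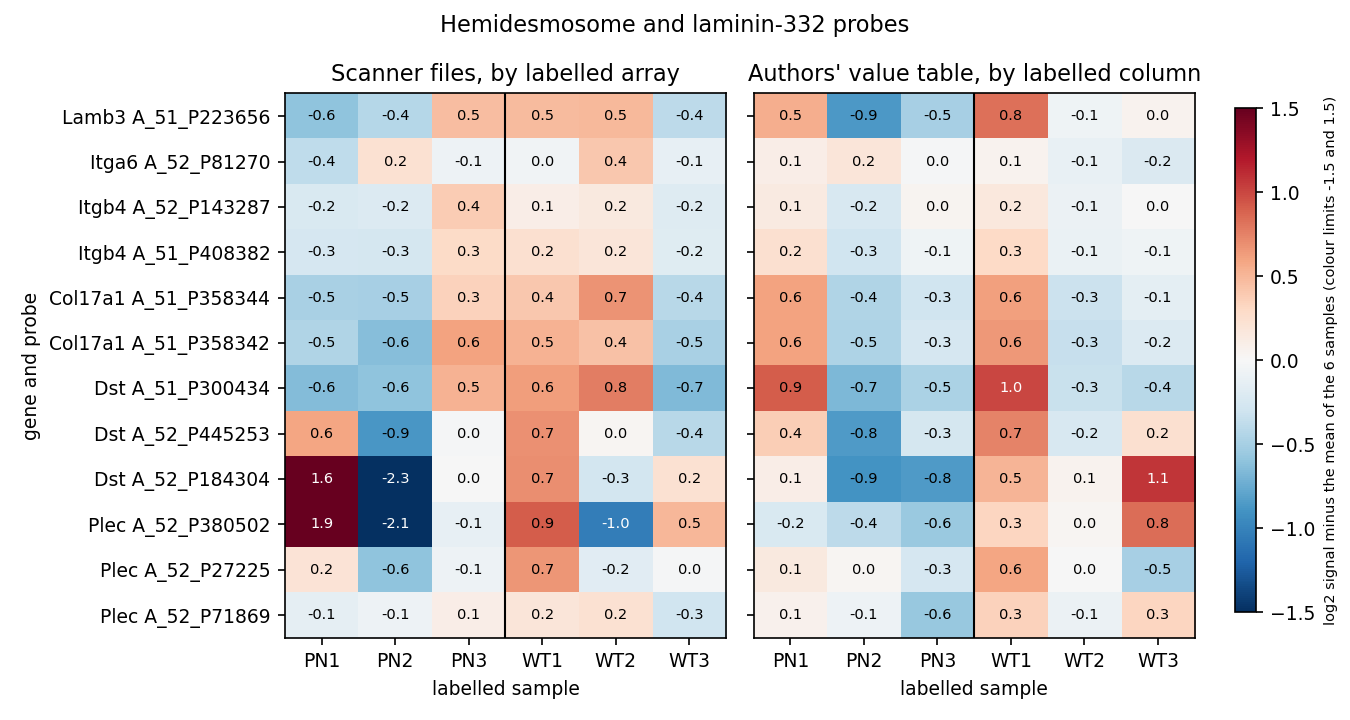
Log2 signal of each probe minus its mean over the 6 samples (colour and printed value), with 1 row for each of the 12 probes and 1 column per labelled sample, Perp-null left of the line and WT right of it. On the scanner files Lamb3, Itgb4, Col17a1 and the Dst probe A_51_P300434 are above their means on PN3, WT1 and WT2. In the value table they are above them in PN1 and WT1.

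Lamb3, Col17a1 and Dst lay closer to each other over the samples than Itga6 did to any of them, in both sources. Likeness was measured over the 6 arrays, and again over the 6 columns, as the root mean square difference of log2 values after each gene was centred on its own mean, among 13235 other named genes. On the arrays Col17a1 was the 19th nearest gene to Lamb3, at 0.112 log2 units, and Dst the 193rd, at 0.187. In the table Col17a1 was the 104th, at 0.248, and Dst the 185th, at 0.286. Itga6 ranked 3648th for Lamb3 on the arrays and 5247th in the table, and for Itgb4, the gene whose product it pairs with, 5037th and 3265th. Plec was the 535th nearest to Itgb4 on the arrays, at 0.13, but the 4998th in the table, at 0.284. The nearest of all genes on the arrays were Ubtd1, Pxylp1 and Kat2b for Lamb3, Tmem229b, Tgfbr2 and Ubtd1 for Col17a1, and Atp6v0a1, Cpq and Abcg4 for Dst, at 0.052 to 0.098 log2 units. For Itgb4 they were Tlr9, Lrrk2 and Cpeb3, for Itga6 Fbxo42 and Lrp12, and for Plec Wdr47, Hagh and Prdx4, at 0.027 to 0.042. Genes with small swings lie close to many others on this measure.

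The 3 highest arrays of Lamb3, which were PN3, WT1 and WT2, were also the 3 highest for 4 of the 5 measured ameloblast markers and for 2 of the 3 odontoblast markers, as they were for 12.4% of 15537 named genes. This order was picked out after the values were seen. Among the members the other genes that shared it, each by its brightest probe, were Itgb4, Col17a1, Dst and Plec. The dimmer probes of Itgb4 and Col17a1 shared it too, but those of Dst and Plec did not. In the table, Lamb3 was highest in columns PN1 and WT1, and 4 of the 5 ameloblast markers and 2 of the 3 odontoblast markers shared this, against 14.4% of 15582 named genes. Markers of other cells shared these columns too. They were Kdr, Cdh5, Tie1, Tek and Icam2 of endothelium (not Pecam1) and Adgre1 and Fcer1g of macrophages (not Csf1r or Tyrobp). Of the dental epithelium markers Krt5 shared them, but not Krt14, Krt17, Epcam, Cdh1 or Trp63. In dental mesenchyme they were Col3a1 and Pdgfra, but not Msx1, Barx1 or Tnc. Pdgfra also had PN3, WT1 and WT2 as its highest arrays. The gene of ameloblastin, Ambn, gave 4.78, 3.83 and 5.61 on arrays PN1 to PN3, against 5.68, 5.95 and 4.56 on arrays WT1 to WT3. Mmp20, the protease that processes enamel matrix, gave 1.35, 0.86 and 2.96 on the Perp-null arrays, against 3.28, 3.28 and 0.91 on the WT arrays. Odam, the ameloblast marker outside this order, gave 3.77, 3.93 and 4.11 on the Perp-null arrays, against 3.62, 4.19 and 3.78 on the WT arrays, and was lowest on WT1, as it was in column WT1. By likeness the dentin gene Dspp was the 183rd nearest gene to Lamb3 on the arrays and the 25th in the table, while Ambn was the 2646th and the 3219th. Ambn was the 216th nearest to Dst on the arrays but the 3060th in the table. In the table, Ambn gave 5.82, 2.69 and 3.90 in columns PN1 to PN3, against 5.70, 4.54 and 4.97 in columns WT1 to WT3, so that PN1 and WT1 were the high columns here too. The summed signal of the 5 measured of 6 ameloblast markers ran from 111 to 203 on the Perp-null arrays, against 136 to 242 on the WT arrays, and from 73.6 to 220 in the Perp-null columns, against 142 to 211 in the WT columns. All 5 were well above background on all 6 arrays. That of 6 dental epithelium markers stayed between 244 and 260 on the Perp-null arrays, against 234 to 262 on the WT arrays, and between 222 and 243 in the Perp-null columns, against 245 to 259 in the WT columns. Whether the members vary with the stage of the ameloblasts was not tested.

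**Figure D3:**
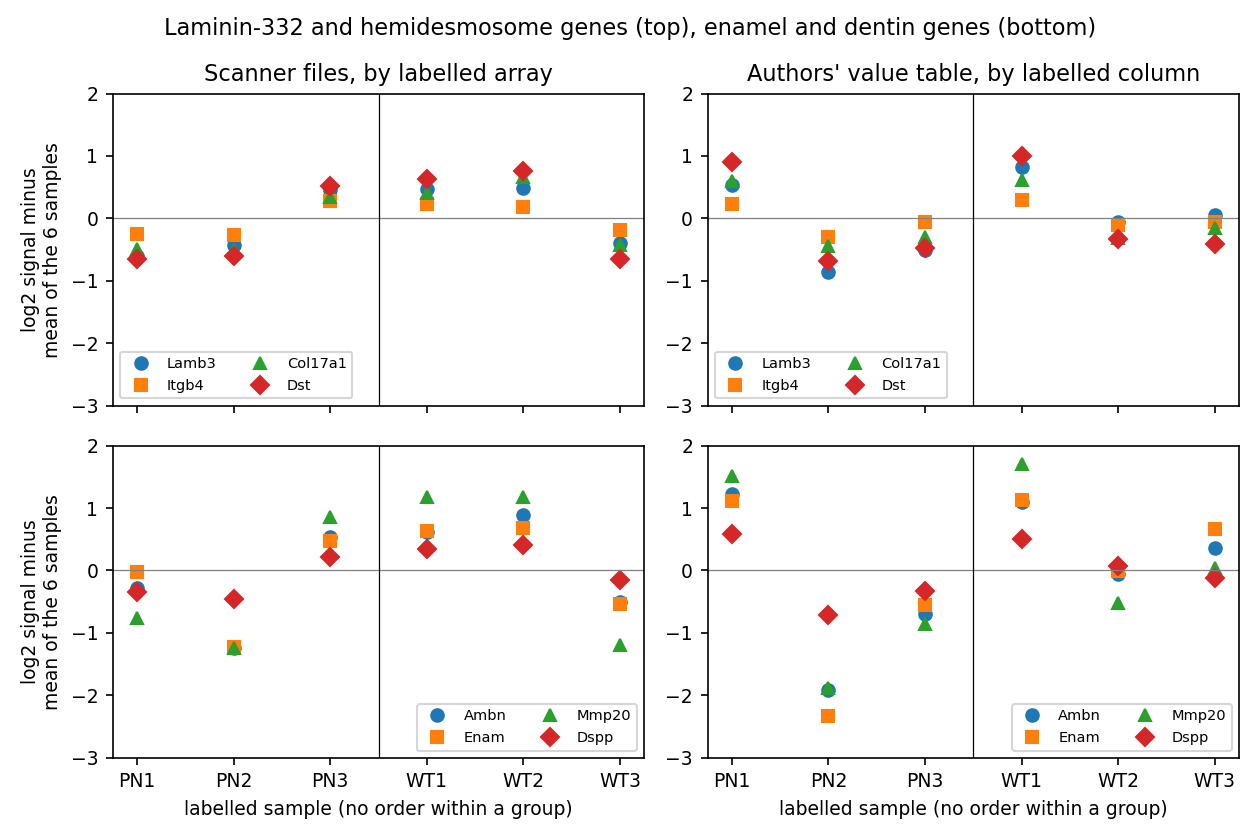
Log2 signal minus the mean of the 6 samples (vertical axis) in each labelled sample, for Lamb3, Itgb4, Col17a1 and Dst in the top row and for Ambn, Enam, Mmp20 and Dspp, the dentin gene, in the bottom row. Scanner files are on the left and the value table on the right. The 8 genes are above their means on arrays PN3, WT1 and WT2, and in columns PN1 and WT1.

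Between the labelled groups, no member passed in either source. On the arrays 0 of the 6 measured members were called (limma), where 0 of 26676 features (0%) were called and 630 features (2.36%) had an unadjusted p under 0.05. For 0 of the 6 members did the labelled groups not overlap, against 7.06% of features (3.49% with the Perp-null arrays lower). For all 6 the Perp-null arrays had the lower mean, where 61% of all features did, and their median log2 fold change was −0.27, against −0.08 over all features. Without array PN2 the median over all features turned to 0.23, and 34.6% of features were lower. The members then stayed at 6 of 6 lower, at a median of −0.27. Without the 3 arrays whose sex signals went against the label, 0 of 6 had a lower mean, at a median of 0.31. That setting left PN3 as the lone Perp-null array, where Perp was 5.97, against 5.96 on WT1 and 5.91 on WT3. With array weights 1 of 6 had a lower mean, at a median of 0.26.

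The value table called 0 of 6 members (limma), where 23.5% of 26677 features were called and 35.8% had an unadjusted p under 0.05. Of all features 14.9% were called lower and 8.64% higher. These calls were concentrated among dim features: over 4 equal bins of brightness, from dim to bright, 43.8%, 45.4%, 4.42% and 0.375% were called, and 2 of the 6 members lay in the third bin and 4 in the brightest. Groups did not overlap for 0 of 6 members, against 43.2% of features (24.4% with the Perp-null columns lower). The mean was lower in the Perp-null columns for 5 of 6, where it was so for 48.7% of features, and the median log2 fold change was −0.13, against 0.01 over all features. Without column WT1, or without column PN2, 2 of 6 had a lower mean, and without column PN3 it was 3 of 6.

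**Figure D4:**
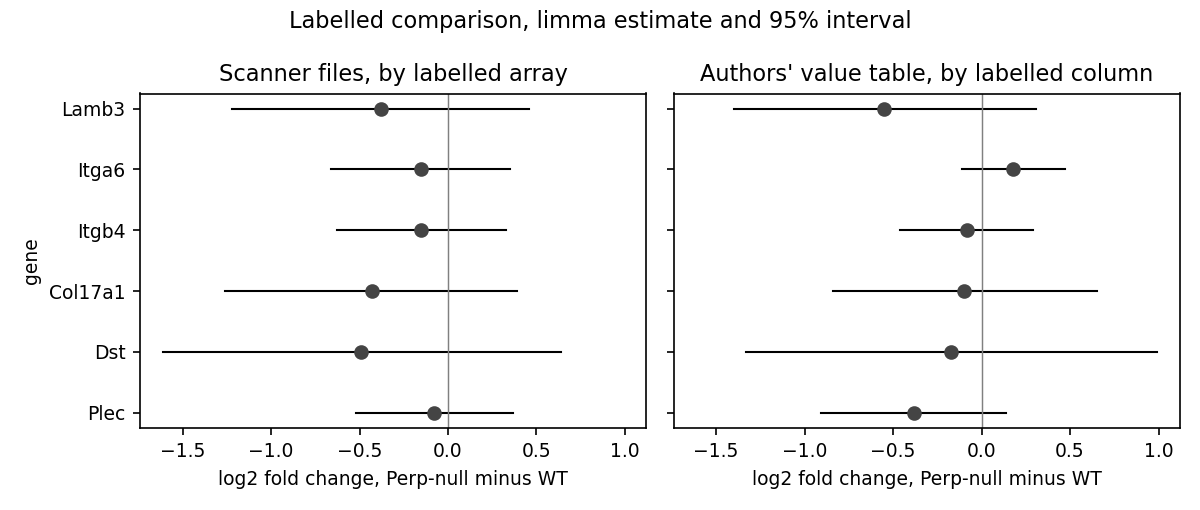
Log2 fold change of Perp-null minus WT (horizontal axis) with its 95% interval from limma, for the 6 measured members, from the scanner files on the left and the value table on the right. Every interval includes 0.

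Of 11 listed partner genes 10 were measured. They take in other laminin receptors, anchoring and filament genes and the proteases that trim laminin-332. The Perp-null mean was the lower one for 8 of the 10 on the arrays and for 5 of the 10 in the table, with 0 called in either (limma). The smallest p on the arrays belonged to Itgb1, integrin beta 1, at −0.30 (SE 0.15), then to Erbin, which binds the Itgb4 product, at −0.36 (SE 0.27), and to Krt14 (limma, adjusted p = 1.00 for each). The 3 highest arrays were those of Lamb3 for 5 of the 10, namely Itga3, Itgb1, Cd151, Fermt1 and Mmp14, as for 12.4% of named genes. Its 2 highest columns were shared by 6 of the 10, these 5 and Krt5, as by 14.4% of named genes. Col7a1, the collagen of the anchoring fibrils, was instead lowest on WT2 (3.48) and highest on PN2 (4.39). Krt14, a keratin of basal cells, gave 4.91, 5.70 and 5.47 in columns PN1 to PN3, against 6.0, 5.87 and 5.75 in columns WT1 to WT3. Its columns did not overlap, as was so for 43.2% of features in the table (24.4% with the Perp-null columns lower). The log2 fold change of Krt14, −0.51 (SE 0.19), did not pass (limma, adjusted p = 0.0885), and on the arrays the sign was the other way, at 0.28 (SE 0.23).

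Of 8 other laminin chains listed, 7 were measured, and the Perp-null mean was the lower one for 7 of 7 on the arrays and for 4 of 7 in the table, with 0 called in either (limma). Lama5 was the one of the 7 whose 3 highest arrays were those of Lamb3, and in the table Lama1, Lama4 and Lamb1 had its 2 highest columns. Of all named genes 12.4% shared these arrays and 14.4% these columns. Lama4, an alpha chain of vessel walls, gave −0.21, 0.91 and 0.52 on arrays PN1 to PN3, against 1.33, 1.57 and 1.18 on arrays WT1 to WT3. Those labelled groups did not overlap, with a log2 fold change of −0.95 (SE 0.29; limma, adjusted p = 1.00), while in the table it gave 0.17 (SE 0.43; limma, adjusted p = 0.832). Lama1 and Lamb1 did not overlap on the arrays either, where 7.06% of features did not (3.49% with the Perp-null arrays lower). Lamb2 and Lamc3 did not overlap in the table, where 43.2% of features did not (24.4% with the Perp-null columns lower). Lamb1 gave −0.48 (SE 0.15) on the arrays and −0.14 (SE 0.18) in the table, and Lama1 gave −0.84 (SE 0.35) and 0.29 (SE 0.54).

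Of 4 other plakins, the protein family of plectin and the Dst products, 3 were measured. Evpl (envoplakin) and Ppl (periplakin) gave −0.19 (SE 0.26) and −0.17 (SE 0.19) on the arrays and 0.08 (SE 0.15) and −0.08 (SE 0.13) in the table. Both had the 3 highest arrays of Lamb3, as 12.4% of named genes did. Evpl also had its 2 highest columns, as 14.4% did. Eppk1 (epiplakin, which binds keratins) gave −3.06, −2.59 and −3.0 in columns PN1 to PN3, against −3.92, −3.84 and −4.27 in columns WT1 to WT3. It was called higher there, at 1.13 (SE 0.22; limma, adjusted p = 0.0216), among the dim features where calls were common, and on the arrays it gave 0.05 (SE 0.69). The call was lost without column PN2 (limma, adjusted p = 0.0693), without column PN3 (limma, adjusted p = 0.0503) and with the replicate block (limma, adjusted p = 0.0538). Most other calls were lost there too: these settings left 1, 787 and 1 features called, in that order, against 6269. The log2 fold change of Eppk1 in them was 0.98, 1.18 and 1.13.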

How the data were processed

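The authors deposited 1 scanner file per sample with spot intensity on a linear scale, made with Agilent Feature Extraction (10.3 per the submitters' processing notes, 10.5.1.1 per the file headers), background subtracted and not scaled between arrays. The authors also deposited a value table. The log2 values as deposited by the authors share a 75th percentile of 10.98 and a maximum of 17.86 in every column, with column medians of 8.36 to 8.39. How they were normalized is not given in the sources used here. The files' flags (0 or 1 per spot, per the file headers) mark spots above background and outliers.

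For the main comparison, log2 processed signal minus each array's 75th percentile was used. Control spots and outlier spots were left out, probes well above background on at least 3 arrays were kept, and a gene was tested by its brightest probe. Genes were named through RefSeq accessions (GRCm38.p6), which named 60.3% of probes. Perp-null and WT were tested against each other in limma 3.58.1 under R 4.3.3 (eBayes with trend, Benjamini-Hochberg adjustment over all features, threshold 0.05), which was tested on simulated data. The value table, centred on its 75th percentile, was tested in the same way on the same features. All WT arrays lay on 1 slide and all Perp-null arrays on another, scanned apart. On the arrays, genotype label, slide and scan therefore cannot be told apart. Most columns did not lie nearest the array of their own label, so the slide behind each column is not known. Replicate numbers follow the place on the slide. Deviations from the group means correlated between samples of the same number at 0.843, 0.876 and 0.193 on the arrays, so the numbers were treated as pairs in an alternative, and at 0.408, 0.393 and −0.023 in the table. Arrays were not moved to another group on their measured values.

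Named genes were the 7 members, the 3 genes of each list with the smallest p, and the 3 genes nearest to each member, and some items are not reported here. Col7a1 was named after its values had been seen, as were the enamel genes among the markers. The members and lists were chosen with earlier results of these data known. Alternatives were other scalings, normexp with an offset of 50 (on median spot signals, as the files used here have no mean signal), other filters and probe rules, eBayes without trend, array weights, the replicate block and leaving out each sample.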

Additional observations from a re-analysis of the deposited data

How the results depend on the processing

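The labelled comparison on the arrays called 0 features, but 1 with normexp, 1 with array weights and 1 with the replicate block (Btbd9 each time, a gene named after its values were seen), and 6269 in the value table. Dropping PN1, PN3 and WT2, where Perp contradicted the label (a choice made after the data were seen), gave 12078 calls, and dropping PN1, PN2 and WT2, where sex signals did, gave 32. Both settings leave WT1 and WT3 against a lone array assumed to vary like the others. In the second that array is PN3, where Perp was 5.97, against 5.96 on WT1 and 5.91 on WT3. The count of unadjusted p under 0.05 was 15 with median scaling, 2648 with array weights, 9561 in the table, and 13241 and 6642 without the arrays against the Perp and sex labels, against 630. In the table the replicate block left 1 call, Perp, and single columns left out gave 1 (without PN2) to 5899. No member changed its call under the block in either source.

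With array weights 1 member had a lower mean (median 0.26), and Lamb3 gave 0.36, Itgb4 0.24, Col17a1 0.28, Dst 0.46 and Plec 0.14, all turned to higher. Without the arrays against the sex label 0 members were lower (median 0.31), with Lamb3 at 0.42, Itga6 at 0.0, Itgb4 at 0.26, Col17a1 at 0.35, Dst at 0.54 and Plec at 0.15. Itga6 turned to 0.32 without the arrays against the Perp label and to 0.18 in the table. Lower partner genes numbered 8 on the arrays, 5 with array weights, 5 in the table, 5 without the arrays against the Perp label and 4 without those against the sex label. Lower plakins numbered 1 with array weights, without the arrays against the sex label and in the table, where 4 laminin chains were lower. The causes were not tested. Normexp moved the median of all features by −0.14, and leaving out array PN2 by 0.32.

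Leaving out 1 array gave 277 to 1330 unadjusted calls, 4 to 6 lower members, 6 to 8 lower partners, 5 to 7 chains and 2 to 3 plakins, with member medians of −0.52 to −0.12. Itga6 ran from −0.31 to 0.01 and Plec from −0.24 to 0.02. Leaving out 1 column gave 7970 to 9461 unadjusted calls, 2 to 5 lower members, 1 (without WT1) to 5 partners, 4 to 6 chains and 0 to 2 plakins, with member medians of −0.47 to 0.11. Itgb4 ran from −0.22 to 0.04, Col17a1 from −0.42 to 0.18 and Dst from −0.66 to 0.29.

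Of 102 member values under alternatives on the arrays, 0 passed and 14 reversed, and the table gave 42, of which 1 passed (Lamb3 without PN1) and 8 reversed. With 3 samples per label, their number limits the precision.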
